A study of Mus musculus with 24 samples.

Results

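Gene expression in the hippocampus was compared with that in the neocortex of control mice, using 8 of the 24 bulk RNA-seq libraries of a mouse study of tumour-induced wasting. The 8 libraries are the 4 control libraries of each region, and they were chosen by their region and treatment labels, not by a measured value. All came from male C57BL/6J mice aged 4 months that had received a mock injection, and the labels place sampling at 3 weeks after injection. The LLC groups, used here only to repeat the regional comparison in other libraries, were mice of the same sex, strain and age injected with LLC tumour cells, with 4 libraries per region. The control cerebellum, again with 4 libraries, serves as a reference level. The labels name no transgene or deletion in any group. They call the libraries biological replicates without saying whether same-numbered libraries of the regions came from the same mouse, how the tissue was dissected, or whether animals were pooled or perfused, so p-values measure only the spread between these libraries.

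The hippocampus is an ancient and simply layered part of the cerebral cortex. Granule cells of the dentate gyrus send their mossy fibre axons to pyramidal cells of field CA3, which project to field CA1, and CA2 lies between the latter fields. The neocortex next to it has stacked layers of projection neurons, from the corticocortical cells of the upper layers to the cells of layers 5 and 6 that project to the brainstem, spinal cord and thalamus.

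Values are TPM, transcript abundances corrected for length and brought to a common total, and they do not tell how many reads lie behind a value. A level of 1 TPM was reached by 14368 to 14587 genes per library. Across the genes tested, Pearson correlations of log2(TPM + 1) were 0.990 to 0.995 among hippocampal libraries, 0.995 to 0.997 among neocortical libraries and 0.957 to 0.970 between the regions. Choroid plexus transcripts varied strongly among libraries of 1 region: the 12 marker genes summed to 3095, 250, 208 and 4970 TPM in hippocampal replicates 14 to 17 and to 529, 2419, 2300 and 1550 TPM in neocortical replicates 14 to 17. None of the 12 passed the test between regions, and their part in other results was not tested beyond a rescaling that leaves them out.

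The libraries labelled neocortex held transcripts of striatal projection neurons, the principal cells of the caudate-putamen beneath the cortex. All 12 genes of the striatal marker list were at least 2-fold lower in hippocampus (2.72% of all genes tested), with a median log2 difference of -3.18, and all 12 had groups that did not overlap, with hippocampus below (19.4% of all genes). The summed level of the list was 1550, 1592, 1487 and 1514 TPM in neocortical replicates 14 to 17 and 143, 145, 137 and 161 TPM in hippocampal replicates 14 to 17, while the control cerebellum had 372 to 408 TPM. In the LLC libraries the sum was 1351 to 1694 TPM in neocortex and 148 to 167 TPM in hippocampus. In bulk tissue, striatal tissue in the sample, striatal genes transcribed in cortical cells, and more cells of a type against more RNA per cell cannot be told apart. Genes that were higher in the neocortical libraries are therefore given below as properties of those libraries, and for genes of striatal neurons the regional label and this content cannot be told apart.

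Of 14907 genes with a mean of at least 1 TPM in either region, 9261 differed between control hippocampus and control neocortex (62.1% of the genes tested, limma with Benjamini-Hochberg adjustment at 0.05). Of these, 6055 were higher in hippocampus (40.6%) and 3206 were lower (21.5%). The unequal split depended on the scaling: after median-ratio scaling 4569 were higher and 4573 lower, after quantile normalization 4654 and 4341, and after removal of trends with GC content and length 4890 and 4505. The median log2 difference of all genes was 0.08 in the deposited TPM and 0.00 after median-ratio scaling. Most calls were small differences: 414 genes were higher by 2-fold or more (2.78%) and 405 were lower by that much (2.72%). All 4 hippocampal libraries lay above all 4 neocortical libraries for 5614 genes (37.7%) and below them for 2896 (19.4%). Members named from lists were mostly chosen by smallest p, so their separate groups add no evidence beyond that choice. Because so many genes differed, a list with about 40.6% of its members higher and 21.5% lower has no more calls than genes at large. Counts under other settings stand against other totals. After median-ratio scaling these are the 4569 higher and 4573 lower of 14907 genes given above, and after quantile normalization 4654 and 4341. In LLC libraries 33.2% of all genes were higher and 17.7% lower. With all 24 libraries in 1 fit, 5169 genes were higher and 2542 lower.

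**Figure D1:**
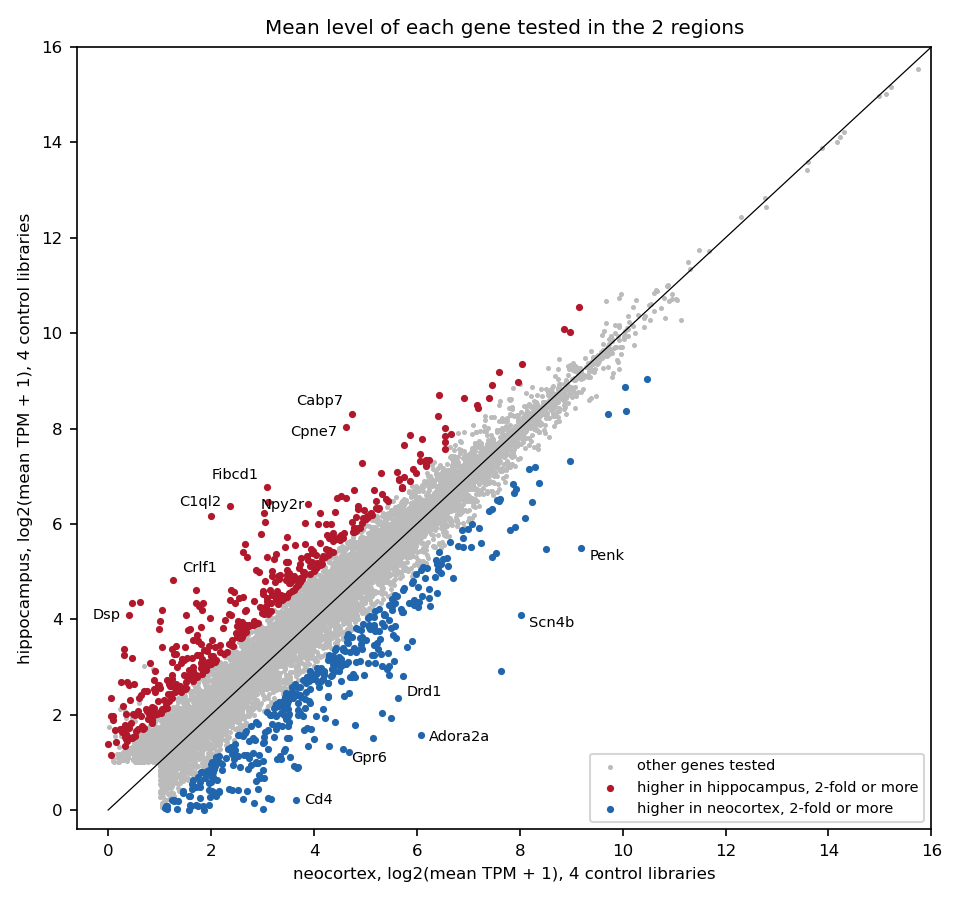
Mean level of each gene tested in the 2 regions, as log2(mean TPM + 1) over 4 control libraries, with neocortex on the horizontal and hippocampus on the vertical axis; each dot is a gene and the line marks equal levels. The 414 red genes were higher and the 405 blue genes lower in hippocampus by 2-fold or more with a limma adjusted p of at most 0.05, and the rest are grey.

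The 12 genes with the largest hippocampal excess were led by markers of its principal neurons. Spink8, a Kazal-type protease inhibitor gene of CA1 pyramidal cells (chromosome 9, 109812280 to 109826633, mm10), stood at 83.9, 62.6, 67.9 and 68.2 TPM in hippocampal replicates 14 to 17 and at 2.14, 3.10, 2.91 and 3.81 TPM in the neocortical ones. Its log2 difference was 4.17 ± 0.12 (SE, limma adjusted p = 1.74e-09). C1ql2, a secreted synaptic organiser of dentate mossy fibres (chromosome 1, 120340582 to 120343174), had 73.8, 77.1, 93.6 and 82.4 TPM against 3.67, 4.797, 3.98 and 4.09 TPM. The groups were far apart for both genes, with log2 differences of 4.17 and 4.01. Fibcd1, a chitin-binding membrane protein gene (chromosome 2, 31813290 to 31846005), had 126, 104, 101 and 104 TPM against 7.23, 7.74, 7.52 and 7.35 TPM. Lct, the lactase gene, was at 19.2 ± 3.34 TPM in hippocampus and 0.378 ± 0.0689 TPM in neocortex (SD, n = 4 each).

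Slc9a4, a sodium/proton exchanger gene, followed with 19.6 ± 2.07 against 0.531 ± 0.0709 TPM, and Dsp, the desmosomal protein desmoplakin, with 16.005 ± 4.56 against 0.318 ± 0.155 TPM. Cabp7 and Cpne7, which encode calcium-binding proteins, were the most abundant of the 12. Cabp7 reached 357, 303, 312 and 293 TPM in hippocampus against 26.8, 23.9, 25.9 and 26.3 TPM in neocortex, and 116 TPM in the cerebellum on average. Cpne7 had a mean of 260 ± 28.2 against 23.6 ± 3.51 TPM, with 0.552 TPM in cerebellum. Shisa6, an auxiliary protein of AMPA receptors, had a log2 difference of 3.33 ± 0.08 (SE), and Npy2r, a receptor for neuropeptide Y, of 2.99 ± 0.07. Non-overlapping groups were a condition for choosing these 12. All were called in every alternative analysis, in each case in the same direction.

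Il16, which encodes a cytokine precursor with a neuronal form, had 18.2, 16.1, 18.2 and 16.9 TPM in hippocampus and 0.950, 1.20, 0.895 and 1.23 TPM in neocortex. The control cerebellum was higher still, with a mean of 93.2 TPM. A promoter window at 1 of its RefSeq starts (250 bases before the start to 50 after it, assembly GRCm38.p6) is shown because, among the windows matched to the 12 genes, it holds the most copies of the E-box CAGATG, a sequence that NEUROD-type proneural factors bind and whose 3 copies are in capitals. The window is chr7:83735490-83735789 on the minus strand, read 5′ to 3′.
Il16: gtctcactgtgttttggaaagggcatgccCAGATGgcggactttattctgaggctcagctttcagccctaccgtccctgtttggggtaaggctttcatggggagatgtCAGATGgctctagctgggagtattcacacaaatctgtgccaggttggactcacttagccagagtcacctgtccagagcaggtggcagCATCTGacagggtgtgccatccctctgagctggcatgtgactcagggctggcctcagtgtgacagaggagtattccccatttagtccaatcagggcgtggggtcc
Searched on both strands, CAGATG occurred in 15.7% of 344 windows of genes higher in hippocampus by 2-fold, in 14.6% of 391 windows of genes lower by 2-fold, in 11.9% of 14200 windows of all genes tested and in 17.2% of all 32851 windows. RefSeq windows were matched for 277 of the 414 higher and 282 of the 405 lower genes. The motif was therefore about as frequent on either side of the comparison, and a match is a description of these letters only.

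**Figure D2:**
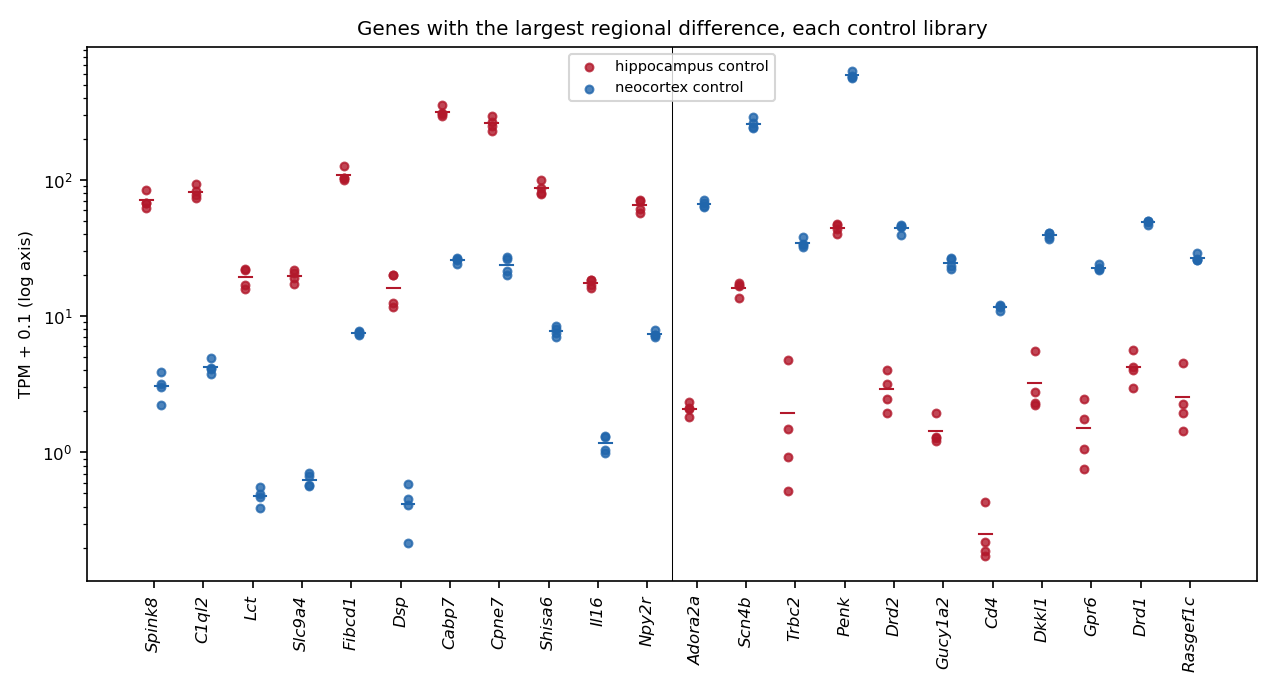
TPM + 0.1 (log axis) of genes among the 12 with the largest difference in each direction, with 1 point per control library of hippocampus (red) and neocortex (blue) and a short line at each mean. The red and blue points do not overlap for any gene shown, which was a condition of their choice. Cabp7 and Cpne7 have the highest hippocampal points of the left block and Penk the highest neocortical points of the right block.

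Markers of dentate granule cells were mostly higher in hippocampus. Of 16 members tested 13 were higher and 1 was lower (40.6% and 21.5% of all genes), 8 of the 13 by 2-fold or more (2.78% of all genes), and the median log2 difference was 1.00 against 0.08 for all genes. Prox1, the transcription factor that specifies granule cells (chromosome 1, 190118035 to 190170714), had 30.9, 35.1, 46.4 and 41.4 TPM in hippocampal replicates 14 to 17 and 7.07, 8.31, 7.23 and 7.41 TPM in neocortex. Its log2 difference was 2.20 ± 0.11 (SE). The exception was Calb1, the calcium buffer calbindin, named after its values were seen, which had 60.2, 66.9, 78.6 and 79.9 TPM in hippocampus and 84.0, 87.9, 88.5 and 82.9 TPM in neocortex (log2 difference -0.27 ± 0.08, limma adjusted p = 0.0127). The summed level of the list differed among the hippocampal libraries: it was 495 TPM in replicate 14, 530 in replicate 15, 665 in replicate 16 and 619 in replicate 17, against 329 to 353 TPM in neocortex. Replicate 14 was lowest for Prox1 too. The control cerebellum had a sum of 1214 to 1438 TPM, above both regions, so the level of the list as a whole is not particular to the dentate gyrus.

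Most pyramidal cell markers of the CA fields moved in the same direction. For CA1, 9 of 10 members were higher and 1 was lower (40.6% and 21.5% of all genes), with a median of 1.32. Gpr161, a receptor of cilia, had 34.8, 42.1, 37.1 and 40.0 TPM against 5.61, 5.47, 5.17 and 5.67 TPM, and Zbtb20, a transcription factor that sets CA1 identity during development, had 47.6, 40.6, 56.2 and 42.5 TPM against 12.9, 14.4, 12.1 and 13.2 TPM. Hippocampus was above neocortex in all libraries for both (37.7% of all genes). Dcn, the extracellular proteoglycan decorin, was also higher (91.9 ± 13.98 against 23.8 ± 2.89 TPM), and it is on the meningeal list as well. The lower member, Wfs1, had overlapping groups (78.1 to 106 against 100.2 to 110.2 TPM), and its call was lost when hippocampal replicate 14 or 16 or neocortical replicate 15, 16 or 17 was left out. After median-ratio scaling 7 of the 10 CA1 members were higher and 1 lower, against 4569 and 4573 of all 14907 genes. In LLC libraries 6 were higher and 1 lower (33.2% and 17.7% of all genes), with a median of 0.94. The list summed to 816, 858, 735 and 805 TPM in hippocampal replicates 14 to 17, with replicate 15 highest.

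For CA2, 7 of 9 members were higher and 1 was lower (40.6% and 21.5% of all genes), with a median of 0.67. Rgs14, a regulator of G-protein signalling that restrains plasticity in CA2, had 131, 111, 117 and 115 TPM against 55.6, 56.7, 58.8 and 57.3 TPM. Amigo2, an adhesion protein gene, stood at 31.5 ± 3.57 against 8.07 ± 1.13 TPM, and the neurotrophin gene Ntf3 at 9.87 ± 1.04 against 1.51 ± 0.219 TPM. Pcp4, a calmodulin regulator that marks CA2 within the hippocampus, went the other way: 298, 329, 358 and 338 TPM in hippocampus and 1074, 1043, 1070 and 1082 TPM in neocortex (log2 difference -1.69 ± 0.05). Without hippocampal replicate 16, 2 members of the list were lower. The list summed to 634 to 706 TPM in hippocampus, 1227 to 1265 TPM in neocortex and 1898 to 1941 TPM in control cerebellum. Its summed level was thus lower in hippocampus, unlike most of its members.

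The CA3 list had the highest median of the hippocampal lists, 1.52, with 8 of 9 members higher and 1 lower (40.6% and 21.5% of all genes). Iyd, an iodotyrosine deiodinase gene, had 9.99, 7.72, 9.31 and 7.10 TPM in hippocampus and 0.280, 0.352, 0.0409 and 0.276 TPM in neocortex. Homer3, a scaffold protein of glutamate synapses, had 51.6, 43.9, 47.6 and 44.4 TPM against 5.55, 5.69, 4.94 and 5.24 TPM, and 270 TPM in cerebellum on average. Groups were separate by several fold for both genes, with log2 differences of 2.94 and 2.91. Coch, named after its values were seen, was lower at 6.10 ± 1.75 against 43.0 ± 3.07 TPM. For mossy cells of the hilus, the calls were near the shares of all genes (40.6% and 21.5%): 3 of 6 members were higher, 2 after median-ratio or quantile scaling and 1 in LLC libraries, and 1, the dopamine receptor gene Drd2, was lower; Drd2 is also on the striatal list. Csf2rb2, a cytokine receptor subunit of mossy cells, had 3.90, 3.02, 3.21 and 2.84 TPM in hippocampus against 0.535, 0.579, 0.345 and 0.540 TPM.

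Genes of the neurogenic niche, in which new granule cells arise, did not move together. Of 10 tested members 2 were higher and 5 lower (40.6% and 21.5% of all genes), and 3 were lower without neocortical replicate 15. The proliferation genes Mki67 and Top2a did not reach the level filter. Hopx, a gene of quiescent neural stem cells that astrocytes also express, had 130, 122, 139 and 115 TPM in hippocampus and 51.6, 51.5, 52.6 and 55.5 TPM in neocortex. Dcx, the microtubule protein of young neurons, had 7.82, 8.04, 9.26 and 7.28 TPM against 12.3, 11.2, 12.8 and 10.7 TPM, so the neocortical libraries held more of it. Stmn1, a tubulin-binding protein, was lower by -1.44 ± 0.11 (SE) on the log2 scale.

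**Figure D3:**
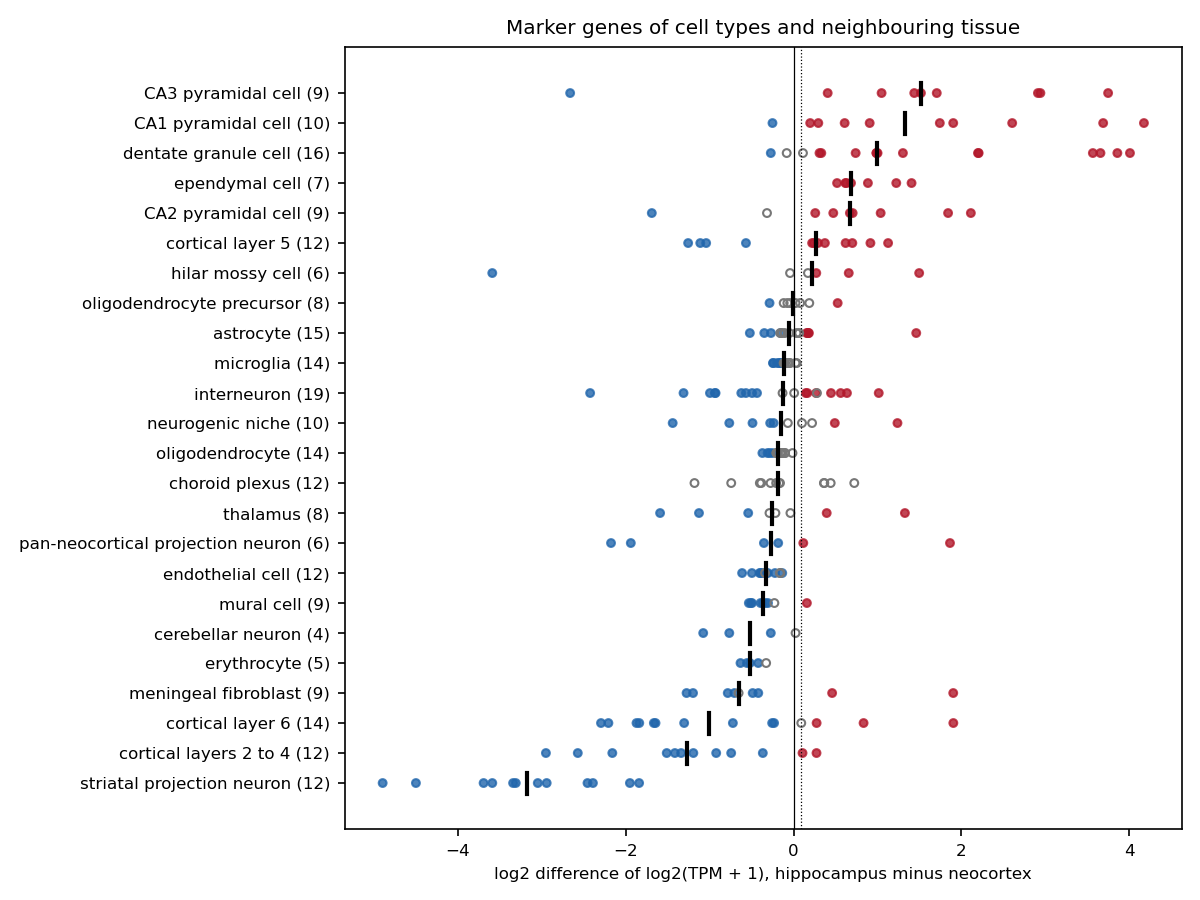
Log2 difference, hippocampus minus neocortex, of every tested member of the cell type marker lists; filled points passed limma at an adjusted p of 0.05, open points did not, the black bar is the list's median and the dotted line the median of all genes (0.08). The CA1, CA2, CA3 and dentate lists have medians of 0.67 to 1.52, the lists for layers 2 to 4 and layer 6 have medians of -1.27 and -1.01, and all 12 striatal genes lie below 0.

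Most markers of neocortical layers were higher in the neocortical libraries for the upper layers and layer 6 but not for layer 5. For layers 2 to 4, 10 of 12 members were lower in hippocampus and 2 higher (21.5% and 40.6% of all genes), 7 of the 10 by 2-fold (2.72% of all genes), with a median of -1.27. Kcnh5, an ether-à-go-go potassium channel gene (chromosome 12, 74897220 to 75177332), had 1.28, 1.73, 1.68 and 1.44 TPM in hippocampus and 19.5, 21.6, 18.1 and 15.5 TPM in neocortex. Lamp5, a membrane protein of upper-layer and neurogliaform neurons, had 37.3, 39.0, 36.0 and 51.9 TPM against 196, 182, 179 and 182 TPM. The groups did not overlap for either gene, with hippocampus below (19.4% of all genes). Rspo1, a secreted enhancer of Wnt signalling, differed by -2.57 ± 0.11 and Rorb, the orphan nuclear receptor of layer 4, by -0.92 ± 0.06 (SE). The count of higher members was 1 rather than 2 without hippocampal replicate 16 or 17 or neocortical replicate 14, 16 or 17. The list summed to 152 to 198 TPM in hippocampus, 422 to 439 TPM in neocortex and 585 to 655 TPM in control cerebellum. Its level as a whole is thus not particular to the neocortex.

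For layer 6, 10 of 14 members were lower and 3 higher (21.5% and 40.6% of all genes), with a median of -1.01. The summed level of the list overlapped between the regions, at 436 to 512 TPM in hippocampus and 447 to 463 TPM in neocortex. Foxp2, a forkhead transcription factor of corticothalamic neurons, had 0.220, 0.336, 0.428 and 0.306 TPM in hippocampus and 5.62, 5.58, 5.35 and 5.36 TPM in neocortex; striatal neurons are also known to express it. Syt6, a synaptotagmin gene, had 4.44, 4.81, 4.43 and 3.32 TPM against 23.5, 24.1, 22.6 and 22.1 TPM. Hippocampal levels were far below neocortical ones for both. Crym, a thyroid hormone-binding protein listed for layer 6, was instead higher in hippocampus at 223, 207, 187 and 184 TPM against 51.6, 54.7, 47.8 and 56.8 TPM, a log2 difference of 1.90 ± 0.07 (SE).

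For layer 5, 8 of 12 members were higher and 4 lower in hippocampus (40.6% and 21.5% of all genes), with a median of 0.27. Npr3, the clearance receptor of natriuretic peptides, had 15.03, 14.4, 14.2 and 14.8 TPM against 5.51, 6.49, 6.49 and 6.12 TPM, and Deptor, an inhibitor of mTOR, had 4.19, 6.78, 5.37 and 6.44 TPM against 14.8, 15.5, 14.96 and 14.02 TPM. The list therefore held genes with clear differences in both directions. Among general markers of neocortical projection neurons, 4 of 6 were lower and 2 higher (21.5% and 40.6% of all genes). By 2-fold, 2 were lower and 1 higher (2.72% and 2.78% of all genes). Their summed level was higher in every hippocampal library, at 1665 to 1823 TPM against 1626 to 1649 TPM in neocortex. Mef2c, an activity-regulated transcription factor, stood at 28.5, 41.3, 37.1 and 48.0 TPM in hippocampus against 183, 179, 175 and 165 TPM. Its hippocampal replicates 15 and 17 were higher than replicates 14 and 16, yet all lay below the neocortical libraries.

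The 12 genes with the largest neocortical excess were dominated by the striatal list, which supplied 6 of them. Adora2a, an adenosine receptor of indirect-pathway neurons (chromosome 10, 75316877 to 75334784), had 1.73, 2.02, 2.00 and 2.23 TPM in hippocampus and 71.4, 67.8, 64.5 and 63.1 TPM in neocortex, a log2 difference of -4.50 ± 0.06 (SE, limma adjusted p = 3.45e-11). Each region stayed within a narrow range, and the groups were far apart. Drd2 and Drd1, the dopamine receptors of the indirect and direct pathways, stood at 2.81 ± 0.899 against 44.0 ± 3.25 TPM and at 4.12 ± 1.09 against 48.9 ± 1.78 TPM (SD, n = 4 each). Penk, the enkephalin precursor and the most abundant of the 12 genes in neocortex, had 47.8, 43.4, 40.1 and 46.3 TPM against 573, 629, 564 and 575 TPM. Gpr6, a constitutively active receptor of indirect-pathway neurons, is on the striatal list too and stood at 1.42 ± 0.763 against 22.6 ± 0.938 TPM.

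Of the remaining genes, Scn4b, a sodium channel beta subunit, stood out by its level: 17.3, 16.6, 13.5 and 16.8 TPM in hippocampus against 290, 260, 241 and 246 TPM in neocortex, and 117 TPM in cerebellum on average. Whether striatal content contributed to the levels of these remaining genes was not tested. Trbc2, a constant region of the T cell receptor beta chain, had 1.38, 0.823, 0.424 and 4.70 TPM against 38.2, 32.0, 34.1 and 33.4 TPM. Cd4, the T helper cell coreceptor, had 0.119, 0.0883, 0.0727 and 0.333 TPM against 11.9, 10.8, 11.8 and 11.6 TPM. Both genes were thus at an even level in the neocortical libraries and far lower in every hippocampal one. Cerebellar means were 0.230 TPM for Trbc2 and 0.124 TPM for Cd4. No list of T cell markers was examined, and which cells held these transcripts was not tested. Gucy1a2, a subunit of guanylate cyclase, Dkkl1, a secreted dickkopf-like protein, and Rasgef1c, a Ras exchange factor, had log2 differences of -3.46 ± 0.10, -3.35 ± 0.19 and -3.08 ± 0.20 (SE).

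Transcription factors that pattern the cortex were largely higher in hippocampus. Of 22 members 15 were higher and 3 lower (40.6% and 21.5% of all genes), with a median of 0.28, and 13 were higher and 5 lower after median-ratio scaling or quantile normalization; without hippocampal replicate 15, 5 were lower. Lhx9, a LIM homeobox gene (chromosome 1, 138825186 to 138848577), had 9.24, 7.57, 8.90 and 6.98 TPM against 0.268, 0.385, 0.437 and 0.404 TPM. Neurod6, a proneural factor of pyramidal cells, had 348, 296, 303 and 284 TPM against 80.1, 89.5, 82.4 and 82.8 TPM, and Neurod2 had 133, 144, 146 and 143 TPM against 57.9, 57.9, 65.8 and 58.4 TPM. The proneural genes were thus more abundant in every hippocampal library than in any neocortical one (37.7% of all genes). Their log2 differences were 1.86 for Neurod6 and 1.22 for Neurod2. Emx2, required for growth of the hippocampus in development, was higher (14.1 ± 0.940 against 9.40 ± 0.645 TPM), and its paralogue Emx1 was lower (12.05 ± 1.69 against 19.2 ± 2.05 TPM). Meis2 was the lowest of the list with 10.1, 13.6, 13.2 and 15.4 TPM against 44.2, 44.3, 46.7 and 42.1 TPM; this TALE homeobox gene is also known from striatal neurons.

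Glutamate receptor genes differed by subunit. Of 17 ionotropic subunits tested 9 were higher and 3 lower, with a median of 0.10, which is near all genes (40.6%, 21.5% and 0.08). Gria1, the AMPA receptor subunit GluA1 (chromosome 11, 57011387 to 57330244), had 614, 546, 636 and 540 TPM against 189, 199, 189 and 189 TPM (log2 difference 1.60 ± 0.05, limma adjusted p = 3.48e-09), while Gria2 differed by 0.56 ± 0.06. Grik4, a high-affinity kainate receptor subunit of CA3, had 41.7, 32.4, 36.9 and 31.8 TPM against 10.8, 9.47, 9.999 and 10.5 TPM. Among NMDA receptor subunits, Grin2a differed by 0.92 ± 0.07 and Grin2b by 0.56 ± 0.06, whereas the obligatory subunit Grin1 was nearly level (156 against 149 TPM, log2 difference 0.07) and changed sign to -0.026 after median-ratio scaling. Kainate subunit Grik3 was lower, with 17.7, 23.98, 23.9 and 22.6 TPM against 45.2, 44.0, 45.5 and 43.6 TPM. Of 7 metabotropic receptors 3 were higher, near the 40.6% of all genes, and 3 lower (21.5% of all genes). None of the higher members passed 2-fold, and 1 was higher after median-ratio scaling. All 3 higher calls were lost with all 24 libraries in 1 fit. The lower members included Grm3 at 33.1 ± 3.34 against 68.9 ± 5.40 TPM and Grm4 at 5.48 ± 1.41 against 16.6 ± 0.874 TPM. All 3 lower members passed 2-fold (2.72% of all genes), but 1 did without hippocampal replicate 14 or without neocortical replicate 15.

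GABA-A receptor subunits differed in both directions: 4 of 12 were higher and 8 lower (40.6% and 21.5% of all genes), with no member outside the calls. Gabra5, the alpha 5 subunit of extrasynaptic receptors (chromosome 7, 57407672 to 57510059), had 263, 221, 236 and 205 TPM in hippocampus and 56.3, 56.9, 62.0 and 53.8 TPM in neocortex. Gabrd, the delta subunit, also extrasynaptic, had 20.7, 23.0, 23.997 and 27.0 TPM against 79.3, 74.3, 68.8 and 75.0 TPM. These subunits thus differed in opposite directions, by 1.99 ± 0.07 and -1.61 ± 0.07. Gabrb2 was lower by -1.24 ± 0.07, and Gabra2 was higher by 0.91 ± 0.04 (SE). The summed TPM of the 12 subunits overlapped between the regions, at 934 to 1021 TPM in hippocampus and 948 to 1020 TPM in neocortex.

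Inhibitory neuron genes were mixed. Of 19 interneuron markers 7 were higher, near the 40.6% of all genes, and 9 lower (21.5% of all genes). After median-ratio scaling 4 were higher and 10 lower, against 4569 and 4573 of all 14907 genes. Pvalb, the calcium buffer of fast-spiking basket cells, had 70.7, 74.9, 66.2 and 75.1 TPM against 135, 139, 136 and 139 TPM. Slc32a1, the vesicular GABA transporter, had 60.9, 65.5, 72.5 and 64.1 TPM against 122, 130, 129 and 125 TPM, and Npy was lower by -0.62 ± 0.04. Neocortical libraries were higher for all of these; striatal projection neurons are GABAergic, so their transcripts and those of interneurons cannot be told apart for Slc32a1. Htr3a, an ion channel receptor of interneurons for serotonin, was higher in hippocampus with 17.1, 17.4, 16.1 and 14.8 TPM against 8.11, 8.15, 7.08 and 6.96 TPM, and it was the sole member past 2-fold in that direction. That call by fold (2.78% of all genes) was lost without hippocampal replicate 14 or 15 or neocortical replicate 16 or 17. Cck, the cholecystokinin precursor, named after its values were seen, had overlapping groups with means of 850 and 845 TPM.

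**Figure D4:**
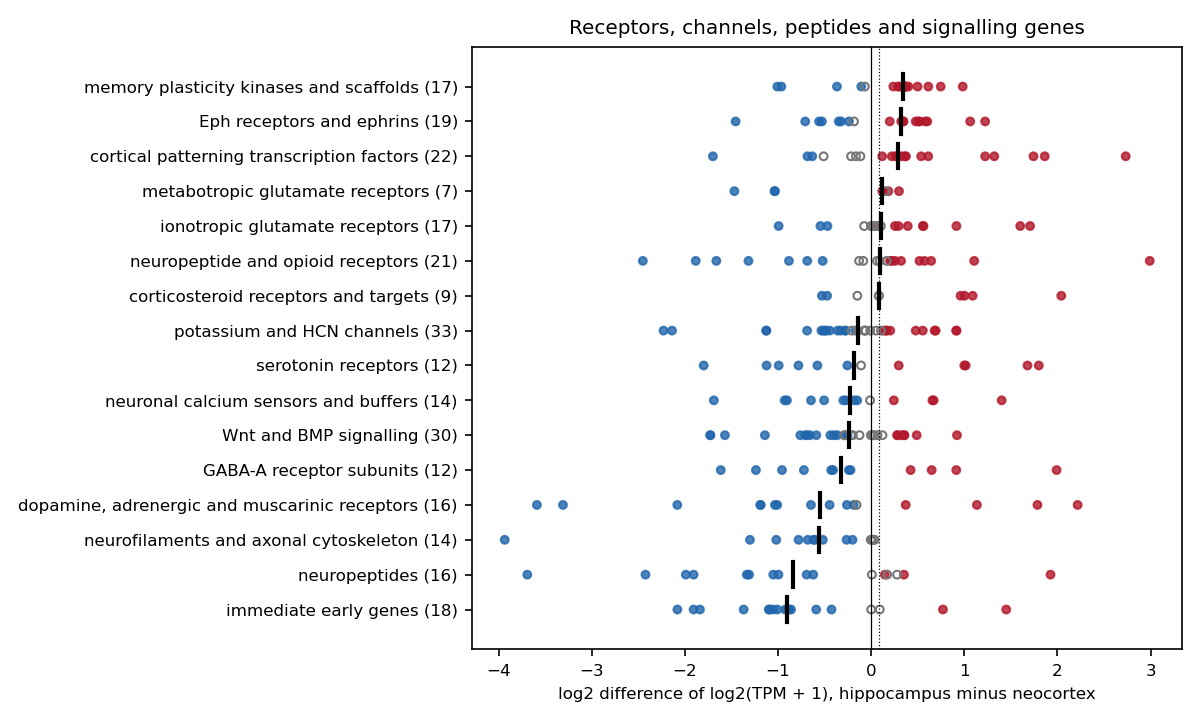
Log2 difference, hippocampus minus neocortex, of every tested member of the 16 functional lists; filled points passed limma at an adjusted p of 0.05, open points did not, the black bar is the list's median and the dotted line the median of all genes (0.08). Most lists hold filled points on both sides of 0, and the immediate early genes have a median of -0.91.

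Of 12 serotonin receptor genes 5 were higher, near the 40.6% of all genes, and 6 were lower (21.5% of all genes). Htr1a, the inhibitory autoreceptor and heteroreceptor, had 20.5, 28.4, 22.6 and 22.3 TPM in hippocampus against 11.4, 10.4, 11.8 and 10.99 TPM. Htr4, coupled to cyclic AMP, had 10.4, 10.1, 12.3 and 9.64 TPM against 2.01, 2.58, 2.20 and 2.55 TPM, and Htr5b had 6.93, 8.09, 7.84 and 8.77 TPM against 1.41, 1.71, 2.23 and 1.82 TPM. All hippocampal libraries were above all neocortical ones for these genes (37.7% of all genes). Htr2a, the excitatory receptor of layer 5 pyramidal cells, was lower with 7.21, 7.83, 8.04 and 8.23 TPM against 17.3, 19.5, 18.8 and 17.4 TPM, and Htr1d was lower at 0.222 ± 0.0938 against 3.25 ± 0.223 TPM. Of the higher members 4 passed 2-fold (2.78% of all genes), and 2 did without hippocampal replicate 15 or without neocortical replicate 17.

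Among receptors for dopamine, noradrenaline and acetylcholine, 4 of 16 were higher and 11 lower (40.6% and 21.5% of all genes), with a median of -0.55. Drd5, a D1-class dopamine receptor, had 13.6, 12.4, 13.4 and 12.4 TPM in hippocampus against 2.27, 1.98, 2.00 and 1.76 TPM, opposite to Drd1. Chrm5 was higher at 4.62 ± 0.605 against 0.626 ± 0.0925 TPM and Adra1d at 58.9 ± 1.42 against 26.3 ± 1.46 TPM. Its relative Adra1b was lower with 2.47, 3.26, 2.12 and 3.85 TPM against 16.6, 15.9, 14.7 and 14.4 TPM, so the alpha 1 receptors differed in opposite directions. Drd1, Drd2 and the muscarinic receptor Chrm4, which was lower by -1.19 ± 0.11, are known from striatal projection neurons.

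Neuropeptide precursors were mostly lower in hippocampus. Of 16 members 10 were lower (21.5% of all genes), 7 of them by 2-fold (2.72%), and 3 were higher (40.6%). The median was -0.84. Tac1, the substance P precursor, had 7.43, 8.46, 7.42 and 7.61 TPM against 45.1, 47.9, 42.0 and 48.4 TPM, and Pdyn, the dynorphin precursor, had 8.63, 10.4, 12.98 and 12.98 TPM against 49.8, 48.6, 41.7 and 48.8 TPM. Both are, like Penk, peptides of striatal neurons, and the neocortical excess was present in every library. Tac2, the neurokinin B precursor, was lower by -1.05 ± 0.06 (SE). Grp, the gastrin-releasing peptide gene, was higher in hippocampus at 45.4, 52.2, 42.1 and 45.7 TPM against 12.2, 10.4, 10.6 and 12.7 TPM.

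Of 21 peptide receptors 9 were higher, near the 40.6% of all genes, and 7 lower (21.5% of all genes); the median of 0.09 turned to -0.01 after quantile normalization. Npy2r, the presynaptic receptor for neuropeptide Y (chromosome 3, 82538383 to 82548084), had 71.4, 60.9, 70.1 and 57.3 TPM against 7.16, 7.19, 6.93 and 7.76 TPM. Npy1r and Npy5r, also receptors for this peptide, were higher by 0.32 ± 0.07 and 0.57 ± 0.08 (SE), while the Npy precursor was lower. The Npy1r call was lost with all 24 libraries in 1 fit. Sstr4, a somatostatin receptor, was higher at 35.1 ± 1.92 against 15.8 ± 0.799 TPM, and Sstr2 was lower at 11.3 ± 1.44 against 29.7 ± 2.61 TPM. Cckbr, the cholecystokinin B receptor, was lower with 7.37, 9.69, 7.03 and 14.5 TPM against 56.8, 56.1, 50.7 and 57.4 TPM, although the level of Cck was similar in both regions. Oprk1 and Tacr1, the receptors for dynorphin and substance P, were lower by -1.88 ± 0.08 and -1.66 ± 0.09.

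Corticosteroid receptors differed in opposite directions. Nr3c2, the mineralocorticoid receptor for which the hippocampus is known, had 116, 86.0, 96.6 and 81.4 TPM in hippocampus against 23.8, 21.6, 21.6 and 21.5 TPM in neocortex (chromosome 8, 76899442 to 77245012; log2 difference 2.04 ± 0.09, limma adjusted p = 3.63e-08). Nr3c1, the glucocorticoid receptor, had 35.9, 38.0, 40.5 and 39.7 TPM against 54.8, 58.9, 53.7 and 56.4 TPM. The hippocampal libraries thus held more Nr3c2 than Nr3c1 transcript, and the neocortical libraries the reverse. Hsd11b1, which regenerates active corticosteroid within cells, was higher at 34.8 ± 2.08 against 16.9 ± 0.443 TPM. Of 9 genes on the list of receptors and targets 4 were higher and 2 lower, which is near the 40.6% and 21.5% of all genes, and 1 was lower without hippocampal replicate 14 or neocortical replicate 15 or 16. Of the targets, Fkbp5 and Zbtb16 were higher by 0.96 ± 0.11 and 1.09 ± 0.12, and Sgk1 and Tsc22d3 had values of 0.08 and -0.15 that did not pass.

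Immediate early genes, which neurons transcribe within minutes of activity, were mostly lower in hippocampus. Of 18 members 14 were lower and 2 higher (21.5% and 40.6% of all genes), with a median of -0.91, and 12 lay below neocortex in all libraries (19.4% of all genes). Egr1, a zinc finger transcription factor, had 42.2, 67.2, 54.3 and 65.3 TPM in hippocampal replicates 14 to 17 and 129, 288, 239 and 236 TPM in neocortex. Nptx2, a secreted pentraxin that gathers AMPA receptors, had 28.0, 21.4, 22.2 and 25.1 TPM against 53.2, 56.2, 49.3 and 52.3 TPM. Homer1, a synaptic scaffold gene with an activity-induced short form, had 27.6, 29.5, 30.6 and 32.1 TPM against 47.0, 70.9, 59.1 and 70.8 TPM. Fos and Egr2, named after their values were seen, had 5.56, 13.7, 9.54 and 8.45 TPM against 21.2, 55.1, 42.9 and 27.8 TPM and 0.544, 2.28, 1.14 and 1.44 TPM against 3.42, 14.7, 11.8 and 8.48 TPM.

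Replicate 14 had the lowest and replicate 15 the highest value in each region for Egr1, Fos and Egr2. The sum of the 18 genes was 506, 654, 566 and 569 TPM in hippocampal and 780, 1424, 1216 and 967 TPM in neocortical replicates 14 to 17, so the level also differed among libraries of 1 region. Of the lower members 8 passed 2-fold (2.72% of all genes), and 5 did without hippocampal replicate 14 or without neocortical replicate 15. The labels give no time of day, handling or time to dissection, whose part was not tested. The higher members were Bdnf, the neurotrophin gene, with 24.3, 22.8, 27.4 and 23.1 TPM against 11.3, 14.7, 14.5 and 15.2 TPM, and, named after its values were seen, the nuclear receptor gene Nr4a3, with 53.8, 51.3, 54.9 and 48.5 TPM against 9.42, 25.6, 21.8 and 21.4 TPM. In both cases all hippocampal libraries were above all neocortical ones (37.7% of all genes).

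Promoters of the list are shown because most of its members were lower together. A window at 1 of the Egr2 starts, chr10:67537619-67537918 on the plus strand, holds a CArG box, the binding sequence of serum response factor, and the Dusp1 window, chr17:26508423-26508722 on the minus strand, holds the cyclic AMP response element TGACGTCA. Dusp1, a phosphatase that turns off MAP kinases, was lower in hippocampus with 11.9, 16.9, 13.7 and 14.3 TPM against 34.9, 51.9, 42.7 and 26.9 TPM, and was chosen for its motif. Capitals mark the motifs, and both sequences run 5′ to 3′ in GRCm38.p6.
Egr2: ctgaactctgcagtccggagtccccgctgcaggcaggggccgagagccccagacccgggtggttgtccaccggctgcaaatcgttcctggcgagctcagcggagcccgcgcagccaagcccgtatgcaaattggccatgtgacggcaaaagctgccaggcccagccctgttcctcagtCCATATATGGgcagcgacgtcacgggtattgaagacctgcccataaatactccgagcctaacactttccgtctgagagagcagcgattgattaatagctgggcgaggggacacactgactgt
Dusp1: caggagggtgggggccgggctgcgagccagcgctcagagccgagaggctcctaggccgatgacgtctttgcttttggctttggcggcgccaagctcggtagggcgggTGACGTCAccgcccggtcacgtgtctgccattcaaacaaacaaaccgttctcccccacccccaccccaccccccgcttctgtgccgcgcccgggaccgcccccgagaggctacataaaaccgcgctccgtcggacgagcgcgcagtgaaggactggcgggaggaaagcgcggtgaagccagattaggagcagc
Of 24 windows matched to 13 of the 18 genes, 4 held a CArG box (16.7%) and 2 held TGACGTCA (8.33%). All 4 CArG windows belong to neighbouring, partly overlapping starts of Egr2, and the TGACGTCA windows belong to Dusp1 and Btg2. The overlapping Egr2 windows hold the same CArG box, so the 16.7% counts that site repeatedly and comes from Egr2 alone. Among all genes tested the shares were 1.42% and 2.92% of 14200 windows. Gpr6, among the 12 genes highest in neocortex, also holds TGACGTCA in its window, chr10:41072241-41072540 on the minus strand, and is shown because it is the only one of the 12 whose matched windows hold that element.
Gpr6: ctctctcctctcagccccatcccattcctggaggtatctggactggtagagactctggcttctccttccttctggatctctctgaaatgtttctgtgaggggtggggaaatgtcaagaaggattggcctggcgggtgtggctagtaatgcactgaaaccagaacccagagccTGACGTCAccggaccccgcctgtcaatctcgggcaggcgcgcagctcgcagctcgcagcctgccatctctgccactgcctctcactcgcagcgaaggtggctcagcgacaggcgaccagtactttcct
Windows of the genes lower in hippocampus by 2-fold held TGACGTCA in 2.81% and those of the genes higher by 2-fold in 0.872%.

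Of 17 kinases and scaffolds linked to memory 12 were higher in hippocampus and 4 lower (40.6% and 21.5% of all genes), with a median of 0.34, and no higher member reached 2-fold (1 did without hippocampal replicate 16). Camk2b, a subunit of CaM kinase II, had 436, 401, 439 and 433 TPM against 280, 273, 277 and 284 TPM. Camk4, a nuclear CaM kinase, was lower with 46.2, 45.8, 47.3 and 46.4 TPM against 93.6, 95.2, 89.995 and 87.4 TPM. For these kinases the libraries of the regions did not overlap (37.7% of all genes with hippocampus above, 19.4% with it below). Of 14 calcium sensors and buffers 4 were higher and 9 lower (40.6% and 21.5% of all genes). Hpca, the calcium sensor hippocalcin, had 1706, 1400, 1473 and 1419 TPM against 580, 554, 550 and 577 TPM, and Necab3 was lower by -1.69 ± 0.12 (SE).

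Ion channel and axonal genes leaned to the neocortex. Of 33 potassium and HCN channel genes 10 were higher and 15 lower (40.6% and 21.5% of all genes). After median-ratio scaling 6 were higher and 19 lower, against 4569 and 4573 of all 14907 genes. Kcna5 and Kcna3, voltage-gated channels of the Shaker family, had 1.09 ± 0.113 against 8.79 ± 0.636 TPM and 2.19 ± 0.329 against 13.02 ± 1.34 TPM. Of 14 neurofilament and axonal genes 10 were lower and 0 higher (21.5% and 40.6% of all genes), with a median of -0.56. The lower ones included Nefm, the medium neurofilament, with 81.1, 83.4, 80.3 and 79.4 TPM against 136, 148, 139 and 136 TPM. Tubb3, the neuronal beta tubulin, was lower by -0.60 ± 0.05 (SE).

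Among glial markers no gene but Gfap passed 2-fold. Their counts after median-ratio scaling stand against 4569 higher and 4573 lower of all 14907 genes. Those in LLC libraries stand against 33.2% higher and 17.7% lower. Of 14 microglial genes 6 were lower and 0 higher (21.5% and 40.6% of all genes), with a median of -0.11; 11 were lower after median-ratio scaling, 5 of the 6 calls were lost with all 24 libraries in 1 fit, and 0 were called in LLC libraries. Csf1r, the receptor that microglia need for survival, was at 50.6 against 60.1 TPM. Of 14 oligodendrocyte genes 4 were lower and 0 higher (21.5% and 40.6% of all genes). The count of lower genes was 8 after median-ratio scaling or without hippocampal replicate 16, and 2 without neocortical replicate 15. All 4 calls were lost with all 24 libraries in 1 fit, and 0 were called in LLC libraries. The sum of that list ran from 2157 TPM in hippocampal replicate 14 to 3376 TPM in replicate 16. Among 15 astrocyte genes 5 were higher and 4 lower, near the 40.6% and 21.5% of all genes, and after median-ratio scaling 1 and 8. The 5 fell to 3 without hippocampal replicate 15 or neocortical replicate 14, 16 or 17. With all 24 libraries in 1 fit, 5 of the 9 calls were lost. Gfap, the astrocyte filament, was the exception in size with 239, 246, 282 and 257 TPM against 85.3, 102, 92.8 and 88.7 TPM, and Aldh1l1, a folate enzyme of astrocytes, was lower at 28.7 against 41.6 TPM.

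Endothelial markers were lower for 9 of 12 genes, mural markers for 7 of 9 and red blood cell genes for 4 of 5 (21.5% of all genes), with medians of -0.33, -0.37 and -0.52. With all 24 libraries in 1 fit, 2, 2 and 4 of these calls were lost. In LLC libraries 8, 6 and 0 genes were lower (17.7% of all genes). Abcb1a, an efflux pump of the blood-brain barrier, was at 17.5 ± 1.29 against 25.1 ± 0.889 TPM. Red blood cell genes summed to 729 to 1180 TPM in hippocampus and 1124 to 1506 TPM in neocortex, and the part of retained blood was not tested. All 7 tested ependymal genes were higher in hippocampus (40.6% of all genes), with a median of 0.68. Their sums were 48.9 to 71.1 TPM against 25.5 to 33.8 TPM, and 2 were called higher in LLC libraries (33.2% of all genes). Tmem212, a gene of ciliated ventricle lining cells, had 11.2, 8.55, 6.35 and 10.5 TPM against 2.36, 2.48, 3.62 and 2.68 TPM. Hippocampal replicates 14 and 17 were highest for the ependymal list and the choroid plexus list alike. Of 9 meningeal genes 2 were higher and 6 lower (40.6% and 21.5% of all genes). The meningeal sum was 575, 962, 403 and 594 TPM in hippocampal replicates and 1128 to 1276 TPM in neocortex, mostly Ptgds. Of 8 thalamic genes 2 were higher and 3 lower (40.6% and 21.5% of all genes), and 5 were lower without hippocampal replicate 15. Of 4 cerebellar markers tested 3 were lower in hippocampus (21.5% of all genes), 1 by 2-fold (2.72% of all genes), with a median of -0.52. Of these 3 calls, 2 were lost with all 24 libraries in 1 fit. The cerebellar markers Gabra6, Cbln3, Pcp2, Barhl2, En2 and Ppp1r17 did not reach the level filter in either region.

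**Figure D5:**
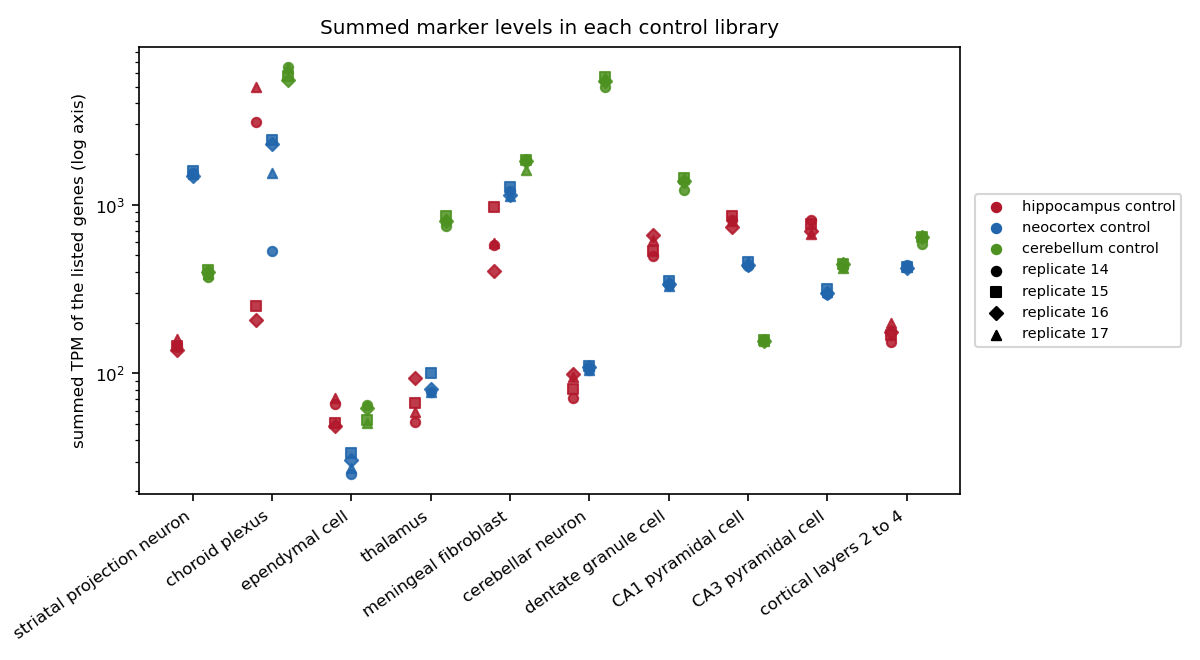
Summed TPM (log axis) of 10 marker lists in each control library of hippocampus (red), neocortex (blue) and cerebellum (green), with 1 symbol shape per replicate number. The striatal sum is 1487 to 1592 TPM in neocortex and 137 to 161 TPM in hippocampus, and the choroid plexus sum spreads from 208 to 4970 TPM among hippocampal libraries.

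The same regional comparison was made in the LLC libraries, which share no library with the control comparison. There, 7587 of the 14907 genes differed (50.9%), with 4943 higher (33.2%) and 2644 lower (17.7%) in hippocampus. By 2-fold or more, 403 were higher (2.7%) and 423 lower (2.84%). In both comparisons 7007 genes were called in the same direction, which is 75.7% of the control calls and 92.4% of the LLC calls, and 0 were called in opposite directions. Of the 819 control calls of 2-fold or more (5.49%), 805 were called the same way. Across genes, which are not independent replicates, the log2 differences had a Pearson correlation of 0.96. Prox1 had 52.7, 41.9, 40.7 and 46.8 TPM in LLC hippocampus against 8.77, 7.94, 7.70 and 6.91 TPM in LLC neocortex, and Penk had 52.6, 43.2, 42.2 and 50.3 TPM against 560, 501, 428 and 563 TPM.

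The difference between the LLC and the control regional comparison was tested for every gene in 1 limma fit, and 0 genes passed (0% of the genes tested), with 528 at an unadjusted p under 0.05. The immediate early gene list had a median of -0.91 in controls and -0.54 in LLC libraries. In the latter, 10 of 18 members were lower and 2 higher (17.7% and 33.2% of all genes). Egr1 had 34.3, 56.2, 43.0 and 46.3 TPM in LLC hippocampus and 110, 168, 142 and 126 TPM in LLC neocortex. Dcn, 1.90 in controls, was at 0.72 ± 0.35 (SE) in LLC libraries and did not pass there (limma adjusted p = 0.117). Its LLC values were 18.8, 73.6, 50.4 and 52.9 TPM in hippocampus against 36.7, 25.7, 21.8 and 23.3 TPM, and the change of its regional difference, -1.18 ± 0.40, did not pass the adjusted test.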

How the data were processed

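Per the labels' protocols, RNA was purified with Trizol and read on a NovaSeq sequencer from stranded TruSeq mRNA libraries. What the authors deposited is a single table of TPM values, covering 47643 gene symbols and 24 libraries. The submitters' processing notes name the build mm10. Aligner, counting tool and annotation: not given in the sources used here. Because TPM is relative to the library total, a few abundant genes shift all others, and reads shared by near-identical genes, such as the globin pairs, may have been split between them.

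Groups came from the titles and the region and treatment labels. Genes with a mean of at least 1 TPM in either region were tested on log2(TPM + 1) by the two-sided moderated test of limma 3.58.1, with trended eBayes, in R 4.3.3. Adjustment followed Benjamini and Hochberg, with a threshold of 0.05. Differences refer to the log2(TPM + 1) scale and understate those of low genes. The 2-fold rule adds an absolute log2 difference of at least 1. The script was first tested on simulated data in which some genes carried a set fold. Of 276 pairs of libraries, 0 were identical.

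The members and the 40 gene lists (24 of cell type markers, 16 functional) were chosen with earlier results of these data known, and lists are described by counts and medians. Named genes are the 12 largest differences in each direction with separate groups, up to 5 members of each list by smallest p, and members of receptor and transcription factor lists. Others were chosen after their values were seen, among them Calb1, Wfs1, Coch, Cck, Fos, Egr2, Dusp1 and Nr4a3. A few genes are not reported here. Coordinates are from GENCODE M21 on mm10, where 96.5% of the genes tested matched exactly 1 gene. Alternatives were a pseudocount of 0.1, a level filter of 5 TPM or no filter, quantile and median-ratio scaling, eBayes made robust, weights per library, a single fit to all 24 libraries, the title number as a block, trends with GC content and length removed, a test against a fold of 1.5 and leaving out each library. Python 3.11.15 with matplotlib 3.10.9 made the figures.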

Additional observations from a re-analysis of the deposited data

Results flagged for a closer look

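Of 128 values tested for a library that lay apart from the other libraries of its group, 7 did (Dixon's criterion at 95%); chance gives about 1 in 20. Fibcd1 stood at 125.8 TPM in hippocampal replicate 14, and the other hippocampal libraries at 101 to 104 TPM. Dkkl1 stood at 5.48 TPM in hippocampal replicate 17, and the others at 2.12 to 2.68 TPM. Gucy1a2 stood at 1.86 TPM in hippocampal replicate 16, and the others at 1.11 to 1.19 TPM. Rasgef1c stood at 29.2 TPM in neocortical replicate 14, and the others at 25.6 to 26.1 TPM. The interneuron list summed to 2947 TPM in neocortical replicate 16 and to 2822 to 2843 TPM in the others, and the thalamic list to 100.4 TPM in neocortical replicate 15 and to 77.3 to 80.3 TPM in the others. The sum of Eph receptors and ephrins was 518 TPM in neocortical replicate 17 and 531 to 534 TPM in the other neocortical libraries. The 4 single genes kept their calls when the library concerned was left out.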

How the results depend on the processing

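Numbers of called genes stayed within 1.5 times under the alternatives run, except the following. The number higher in hippocampus by 2-fold rose from 414 to 713 with a pseudocount of 0.1, which raises the differences of low genes. In the LLC libraries that pseudocount raised the number higher by 2-fold from 403 to 640. The test against a fold of 1.5, which has no 2-fold cut, called 648 genes higher in control hippocampus. For the difference between the LLC and the control comparison the count of 0 became 1 higher gene (past 2-fold) with the title number as a replicate block and 2 lower genes (past 2-fold) with a pseudocount of 0.1; leaving out single libraries gave 0 to 1 lower, the 1 coming without hippocampal LLC replicate 2. Grin1 reversed to -0.026 after median-ratio scaling.

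With single libraries left out, the control comparison called 5608 to 6201 higher and 2880 to 3161 lower genes. With the replicate block it called 6200 and 3313. The numbers were not treated as pairs, since deviations of same-numbered libraries from their group means correlated at 0.10, -0.06, -0.03 and 0.16, and not every library correlated best with its own number. The immediate early sum was nonetheless highest in replicate 15 of hippocampus, neocortex and cerebellum, at 654, 1424 and 382 TPM. The choroid plexus sum was highest in hippocampal replicate 17 but neocortical replicate 15. Whether same-numbered libraries share a mouse remains unknown. All 24 libraries in 1 fit called 5169 and 2542, and rescaling without the 100 most abundant genes and the choroid plexus markers, chosen after seeing the data, 5471 and 3741. Of 399 listed or named genes that were called, 311 were called the same way in every alternative and 366 when any 1 library was left out. The number of reads behind a TPM value is not known, which limits statements on genes near 1 TPM.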

Other observations

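Signalling genes of the Eph and ephrin family, which guide axons and shape dendritic spines, differed in both directions. Of 19 tested members 11 were higher in hippocampus and 7 lower (40.6% and 21.5% of all genes tested), with a median log2 difference of 0.32. After median-ratio or quantile scaling 10 were higher and 8 lower. Epha7 had 51.1, 47.0, 58.4 and 49.9 TPM in hippocampal replicates 14 to 17 and 20.3, 22.5, 22.2 and 20.8 TPM in neocortex, and Epha4 had 167, 136, 161 and 141 TPM against 73.0, 73.2, 71.4 and 69.0 TPM. The ligand Efna5 was lower in hippocampus with 5.16, 7.04, 4.89 and 5.59 TPM against 17.3, 16.6, 17.3 and 17.4 TPM. Groups did not overlap for any of these genes (37.7% of all genes with hippocampus above, 19.4% with it below).

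Among 30 tested genes of Wnt and BMP signalling 7 were higher and 14 lower in hippocampus (40.6% and 21.5% of all genes tested), with a median of -0.23. The lower genes were led by Fzd3, a Wnt receptor of axon guidance, with 6.60, 6.94, 9.97 and 6.92 TPM against 27.5, 30.5, 25.4 and 25.5 TPM, by the ligand Wnt10a with 2.58, 2.94, 2.14 and 3.27 TPM against 11.53, 10.2, 8.88 and 9.55 TPM, and by Bmp3 with 1.97, 3.64, 2.46 and 3.93 TPM against 12.1, 11.9, 11.8 and 12.1 TPM. Wnt7b was higher at 28.6 ± 0.991 against 20.1 ± 0.806 TPM (SD, n = 4 each). For each of these genes the libraries of the regions were separate (37.7% of all genes with hippocampus above, 19.4% with it below).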
